A study of Rattus norvegicus with 60 samples.

Results

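Gene expression of the contused rat spinal cord 48 h after medication was compared with that of uninjured cord in 8 of the 60 rats of the series, 4 injured and 4 sham, with 1 Affymetrix Rat Gene 1.0 ST array per rat. The rats were chosen by their labels alone, as all those taken at 48 h. They were female Long Evans rats, 8 or 9 weeks old, whose thoracic cord was struck by a dropped weight after removal of the overlying bone (SCI) or left uninjured (sham). Every rat was given 70% ethanol into a vein soon after surgery, either alone as the vehicle (SCI-EtOH and S-EtOH, 2 rats each) or with 30 mg/kg methylprednisolone (MP), a synthetic glucocorticoid that dampens inflammation (SCI-MP and S-MP, 2 rats each). No group shows cord without ethanol, and the 5 mm of lesioned cord that was taken holds grey and white matter, vessels, meninges and any cells that entered from the blood. The comparison asked which genes differed between injured and sham cord whichever medication was given.

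A contusion bursts vessels and kills neurons and glia at the point of impact within hours. Blood neutrophils arrive first and monocytes follow and become phagocytes of debris, while surviving astrocytes, oligodendrocyte precursors and vascular cells change state and begin to divide. A piece of cord carries the RNA of all these cells together, so that fewer cells of a type and less RNA per cell cannot be told apart in these values.

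The deposited values are log2 numbers centred near 0 for each probe set. A value compares rats for 1 gene and says nothing about how strongly that gene is expressed next to another. Differences are therefore given as injured minus sham on the log2 scale, where 1 is a doubling, averaged over both medications, with the standard error (SE) of the limma fit and the adjusted p (Benjamini-Hochberg over 14324 genes, called at 0.05). The first principal component of the 8 arrays held 76.3% of their variance and set the injured rats (31.05 to 39.49) apart from the sham rats (−37.77 to −29.57). The injured arrays had a wider spread over probe sets than the sham arrays (SD 0.4957 to 0.5296 against 0.1707 to 0.1798). Within pairs of rats treated alike the median SD of a probe set was 0.0986 and 0.101 in the injured and 0.0613 and 0.0624 in the sham pairs. Of the sham rats, S-MP replicate 2 lay nearest the injured rats on this component (−29.57).

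Injury changed the RNA of 6304 of 14324 genes (44.0%), of which 3206 were higher (22.4%) and 3098 lower (21.6%) than in sham cord. Falls were the deeper changes, with 125 genes lower by over 2 on the log2 scale against 46 higher by as much, while the median over all genes was 0.0263. In 2397 of the genes called higher all 4 injured rats lay above all 4 sham rats, and in 2627 of those called lower all 4 lay below (18.9% and 19.4% of all genes separated in this way, called or not). The 15 largest rises of this kind were led by chemokines and macrophage genes, and the 15 largest falls by neurofilament, channel and synapse genes, as the plot of the array values shows.

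**Figure D1:**
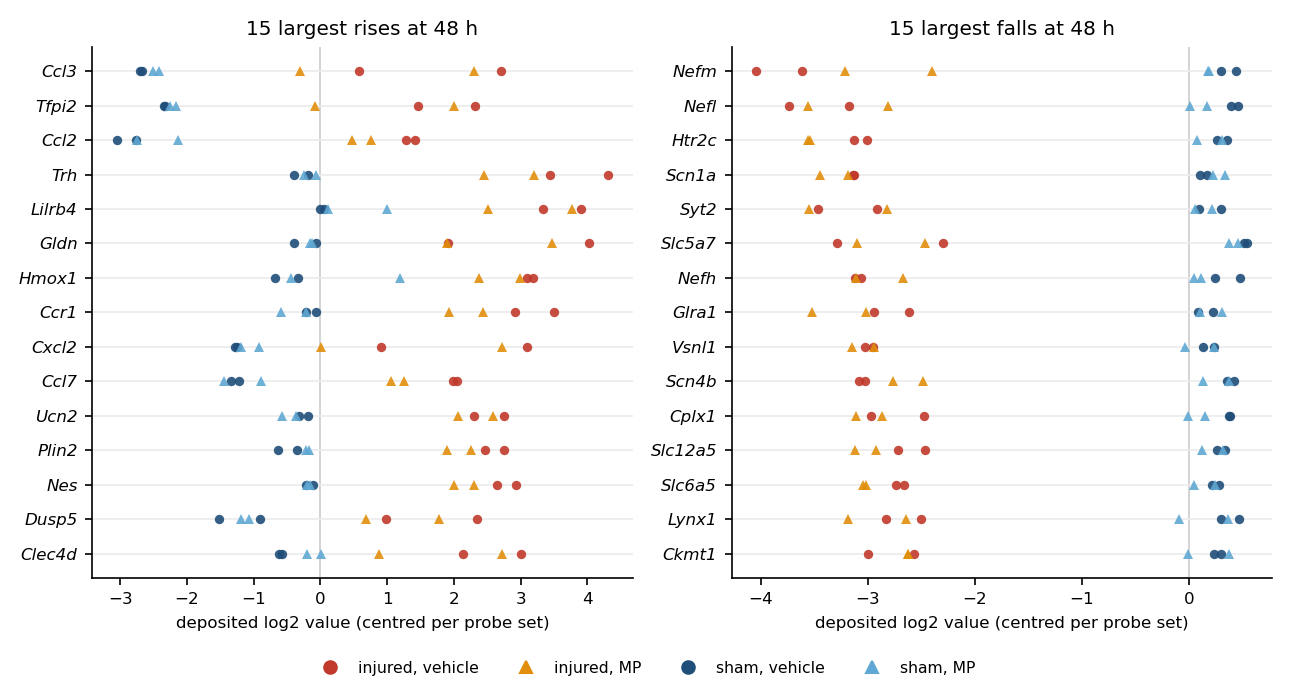
Deposited log2 value (horizontal axis, centred per probe set) of the 15 genes with the largest rise and the 15 with the largest fall at 48 h, 1 point per rat, with colour and shape for the 4 groups. The sham rats lie closer together than the injured rats in most genes, and the injured rats range from −0.30 to 2.70 for Ccl3, from 2.00 to 2.93 for Nes, from −4.04 to −2.40 for Nefm and from −3.15 to −2.95 for Vsnl1.

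The largest fall was that of the neurofilaments, the intermediate filaments that fill large axons. Nefm lay at −3.62 and −4.04 in the SCI-EtOH rats, −3.21 and −2.40 in the SCI-MP rats and 0.18 to 0.44 in the 4 sham rats, a difference of −3.59 ± 0.30 (SE, n = 4 against 4, adjusted p = 4.89e-12). The injured and sham rats did not overlap for any of the neurofilament genes, and Nefl (−3.58 ± 0.25) and Nefh (−3.21 ± 0.25) fell as far. Of 21 neuron structural genes measured, 19 fell and 0 rose, with a median of −1.97. The exceptions were Tubb2a, a tubulin, at 0.03 and Gap43, a growth cone protein, at 0.23 (adjusted p = 0.230), and neither passed the test. Vsnl1, a neuronal calcium sensor (−3.16), Thy1, a neuronal surface protein (−2.75), and Map2, the microtubule protein of dendrites (−1.97), fell too.

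Genes of synaptic transmission fell nearly as a whole. Of 30 genes of synaptic vesicle release 27 fell and 1 rose (median −1.75), of 22 genes of GABA and glycine transmission 21 fell and 0 rose (median −1.76), and of 29 genes of glutamate transmission 27 fell and 0 rose (median −1.25). Syt2, the calcium sensor of fast vesicle release, lay between −3.55 and −2.82 in the injured and between 0.06 and 0.30 in the sham rats (difference −3.35 ± 0.27, adjusted p = 3.22e-12), and its partner Cplx1 fell by 3.08. Inhibition in the cord runs largely through glycine, and its receptor subunit Glra1 (−3.20 ± 0.20), its neuronal transporter Slc6a5 (−3.06 ± 0.20) and Slc12a5, which keeps chloride low in neurons (−3.07 ± 0.19), all fell with no overlap between injured and sham rats. Among glutamate genes the NMDA receptor subunit Grin1 fell furthest, by 2.45. The 1 gene of vesicle release that rose was Syt4, a synaptotagmin that is induced by activity, with values of 0.44 to 1.40 in the injured rats against −0.07 to 0.13 in the sham rats (0.95 ± 0.20, adjusted p = 0.000135).

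Of 23 genes of voltage-gated sodium and potassium channels 21 fell and 0 rose (median −1.67), led by Scn1a (−3.44 ± 0.22) and Scn4b (−3.16 ± 0.19), subunits of the sodium channels that carry fast firing, and by Kcna2 (−2.91 ± 0.13), the potassium channel that flanks the node of Ranvier. Htr2c, a serotonin receptor that sets the excitability of motor neurons, fell by 3.56 ± 0.27. Of 16 cholinergic and motor neuron genes 11 fell and 1 rose (median −1.22). Slc5a7, which takes up choline for the synthesis of acetylcholine, lay between −3.29 and −2.30 in the injured and between 0.37 and 0.55 in the sham rats (−3.26 ± 0.27), and Chodl, a marker of fast motor neurons (−2.86), and Slc18a3, the vesicular acetylcholine transporter (−1.81), fell too. The gene of this list that rose was Mmp9, which neutrophils make as well.

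Not every neuronal gene fell. Of 25 neuropeptide genes 10 fell and 5 rose (median −0.22). The share that rose was smaller in this list than over all genes (22.4%), and the share that fell was larger (21.6% of all genes). The granule proteins Chga (−1.75) and Chgb (−1.63) fell, whereas Vgf, the precursor of several nerve peptides, rose by 1.83 ± 0.26, Npy by 1.68 ± 0.17 and Gal, the precursor of galanin, by 1.59 ± 0.18. Trh, the precursor of thyrotropin-releasing hormone, which is not in that list, was among the largest rises of all: 3.44 and 4.31 in the SCI-EtOH rats, 3.20 and 2.45 in the SCI-MP rats and −0.40 to −0.07 in the sham rats (3.58 ± 0.17, adjusted p = 3.76e-17). Of 31 genes of axon growth and regeneration 12 rose and 9 fell (median 0.03, and −0.0727 after quantile normalization), among them the injury-induced transcription factor Atf3 (2.38 ± 0.18), Klf6 (1.41) and Jun (1.11) on 1 side and the guidance genes Slit1 (−1.17) and Rgma (−1.13) on the other.

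**Figure D2:**
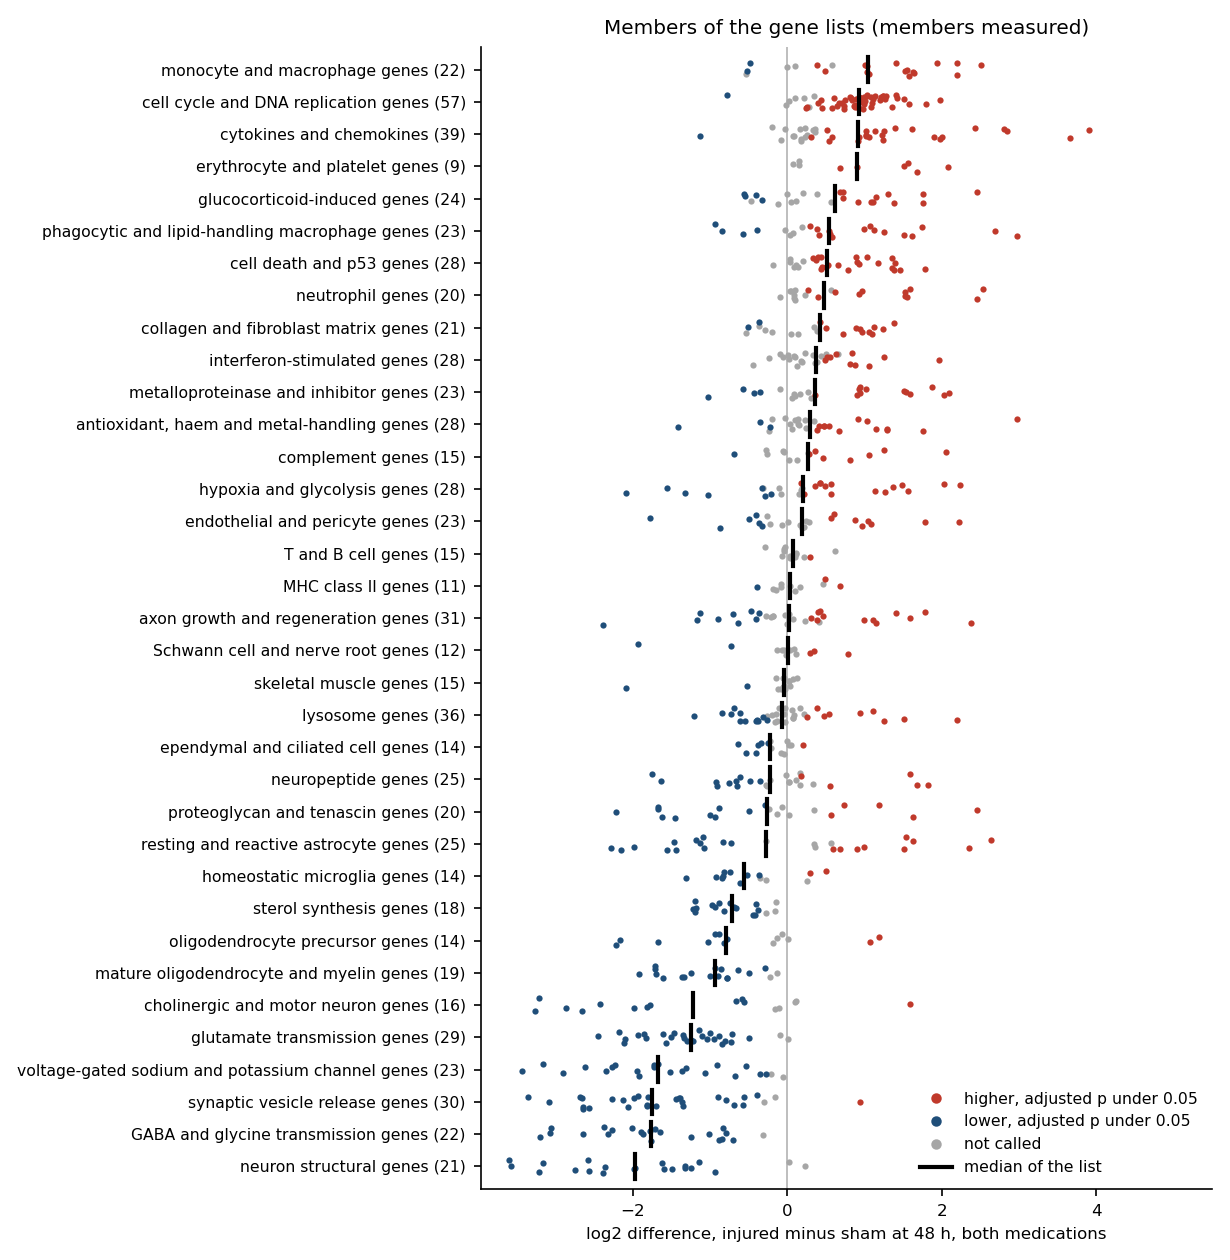
Log2 difference between injured and sham rats at 48 h over both medications (horizontal axis) for each measured member of the 35 gene lists (rows, ordered by their median), red where higher and blue where lower at an adjusted p under 0.05, grey where not called, with the median of the list as a black bar. Lists of neurons lie at the bottom with medians down to −1.97 and the monocyte and macrophage list at the top at 1.05.

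Astrocyte genes went both ways. Of 25 measured 12 fell and 9 rose (median −0.28). The deepest falls were of Slc7a10, which exchanges serine (−2.28 ± 0.20), Slc1a2, which clears glutamate (−2.15 ± 0.18), and the water channel Aqp4 (−1.98 ± 0.13). Those that rose included Nes, an intermediate filament of progenitors and reactive astrocytes, at 2.00 to 2.93 in the injured and −0.21 to −0.12 in the sham rats (2.64 ± 0.15), Serpina3n, a protease inhibitor (2.35 ± 0.34), and the adhesion receptor Cd44 (1.63). Gfap, the filament by which astrocytes are usually stained, was lower in all 4 injured rats (−1.06 to −0.46 against −0.03 to 0.30, difference −0.83 ± 0.11, adjusted p = 8.59e-08).

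Of 19 genes of mature oligodendrocytes and myelin 17 fell and 0 rose (median −0.94). Ugt8 (−1.71) and Fa2h (−1.69), which make the lipids of myelin, and Mal (−1.71) and Mog (−1.33), proteins of myelin, fell, while Mbp, the basic protein of compact myelin, was at −0.13 (adjusted p = 0.321). After quantile normalization, which gives all arrays the same spread, 11 of these 19 genes were called, against 36.2% of all genes. Sterol synthesis, which supplies cholesterol to myelin among other membranes, fell alongside with 15 of 18 genes lower and 0 higher (median −0.71). The fall was led by Tm7sf2 (−1.21) and Dhcr7 (−1.20). After quantile normalization 5 of the 18 were called, a smaller share than over all genes. Of 14 genes of oligodendrocyte precursors 8 fell and 2 rose (median −0.80): Bcan (−2.22) and Gpr17 (−2.17) fell, and Pdgfra, the growth factor receptor of these precursors and of fibroblasts, rose by 1.07 and Vcan, a matrix proteoglycan, by 1.18. Of 14 ependymal and ciliated cell genes 6 fell and 1 rose (median −0.22), led by Hydin (−0.63). Of 12 genes of Schwann cells and nerve roots 3 rose (25.0%) and 2 fell (16.7%), near the 22.4% and 21.6% of all genes (median 0.01).

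Blood and immune lists moved mostly upward, where 22.4% of all genes rose. The T and B cell list (6.67% higher) and the MHC class II list (18.2% higher) lay under that share. Genes of resting microglia mostly fell. Of 22 monocyte and macrophage genes 16 rose and 2 fell (median 1.05). The 2 that fell were Csf1r (−0.52, adjusted p = 0.00163) and Adgre1 (−0.48, adjusted p = 0.0192), each with overlap between injured and sham rats. Cd14, a receptor for bacterial products, lay at 1.58 to 1.73 in the injured rats and at −1.19, −1.18, −0.90 and −0.26 in the sham rats, the last being S-MP replicate 2 (difference 2.50 ± 0.26, adjusted p = 6.96e-10). Cd68, a lysosomal protein of macrophages (2.20), and Arg1, which breaks down arginine (2.20), rose as far. Of 23 genes of phagocytic and lipid-handling macrophages 15 rose and 4 fell (median 0.54), and after quantile normalization 7 rose and 3 fell. Hmox1, which breaks down haem, was at 2.38 to 3.18 in the injured rats, at −0.68 to −0.34 in 3 sham rats and at 1.19 in S-MP replicate 2 (2.98 ± 0.27), and Plin2, which coats lipid droplets, rose by 2.69 ± 0.22. The 4 that fell were Nceh1 (−0.94) and Abcg1 (−0.84), which mobilise and export cholesterol, its carrier Apoe (−0.57) and the protease Ctss (−0.39).

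Genes of resting microglia went the other way, with 9 of 14 lower and 2 higher (median −0.57). The 2 that were higher were Il6st (0.50) and P2ry6 (0.30). With the plain test on the 48 h arrays 2 of the 14 were lower and 0 higher, against 2413 of all 14324 genes lower. In that test the share that fell was no larger in the list than over all genes. P2ry12, the purine receptor that guides their processes, lay between −1.02 and −0.70 in the injured and between 0.17 and 0.55 in the sham rats (−1.31 ± 0.18, adjusted p = 1.91e-07). Cx3cr1, the receptor of the neuronal chemokine Cx3cl1, differed between injured rats treated alike (0.16 and −0.78, −1.58 and 0.17) and overlapped the sham rats (0.16 to 0.67). Its difference was −0.93 ± 0.22 (adjusted p = 0.000554), and its ligand Cx3cl1 fell by 1.13.

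Of 20 neutrophil genes 11 rose and 0 fell (median 0.48). The largest rises were of Clec4d, a lectin of myeloid cells (2.53 ± 0.34), Il1r2, a decoy receptor of interleukin-1 (2.45 ± 0.33), Mmp9 (1.59), the lectin Clec4e (1.55), Cxcr2, the receptor by which neutrophils sense Cxcl1 and Cxcl2 (1.53), and S100a9 (1.52), several of which monocytes also make. With the plain test on the 48 h arrays 6 of the list rose. Of the granule genes that mark the neutrophil most closely, Mpo did not pass the test (0.05, adjusted p = 0.717) and Elane rose by 0.40 (adjusted p = 0.00349), with 1.02 in SCI-EtOH replicate 2, 0.07 to 0.22 in the other injured rats and −0.25 to 0.05 in the sham rats. Of 15 T and B cell genes 1 rose, Cd2 by 0.29, and 0 fell (median 0.08). Of 9 erythrocyte and platelet genes 6 rose and 0 fell (median 0.91), with the haem enzyme Alas2 at 1.01, 1.09, 0.39 and −1.19 in the injured rats against −2.97 to −1.21 in the sham rats (2.08 ± 0.41). In the plain test the share called was smaller in the erythrocyte and platelet list than over all genes. The part of blood left in the tissue in the other blood cell lists was not tested. Of 15 skeletal muscle genes 2 fell and 0 rose: Pvalb (−2.09), which inhibitory neurons express as well, and Tnnc2 (−0.52).

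Cytokines and chemokines rose in 24 of 39 genes and fell in 1 (median 0.92), the latter being Cx3cl1, and in the plain test 15 rose and 0 fell. Ccl3, which draws monocytes and neutrophils, had the largest rise of all, with 0.58 and 2.70 in the SCI-EtOH rats, 2.31 and −0.30 in the SCI-MP rats and −2.70 to −2.42 in the sham rats (3.90 ± 0.44, adjusted p = 2.98e-09). The pairs of injured rats differed widely for Ccl3, and its SE and p rest on the pairs of all times. Ccl2, the main attractant of monocytes, lay between 0.47 and 1.42 in the injured and between −3.05 and −2.14 in the sham rats (3.66 ± 0.31), and Ccl7, which shares its receptor, rose by 2.81 ± 0.24. Cxcl2 (2.84 ± 0.39) and Cxcl1 (1.90), which draw neutrophils, and Il11 (2.43) and Lif (2.01), cytokines that signal through the receptor chain Il6st, rose too. The classical early cytokines rose less, Il1b by 1.39, Tnf by 1.02 and Il6 by 1.02. Ccr1, a receptor of Ccl3, rose by 2.97 ± 0.24. Of 28 interferon-stimulated genes 10 rose and 0 fell (median 0.38), of 15 complement genes 7 rose and 1 fell (median 0.27) and of 11 MHC class II genes 2 rose and 1 fell (median 0.04). The largest of these rises were Cd55, which protects cells from complement (2.05 ± 0.33), and Ifitm1 (1.97 ± 0.19), a membrane protein that blocks virus entry.

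Genes of the cell cycle and DNA replication were higher at 48 h in the fit of all arrays, and unequally so between the injured rats. Of 57 measured 50 rose and 1 fell, with a median of 0.93. Rrm2, the subunit of ribonucleotide reductase that makes DNA building blocks, had the largest rise: 3.96 and 1.61 in the SCI-EtOH rats, 3.28 and 3.95 in the SCI-MP rats and 0.90 to 1.55 in the sham rats (1.98 ± 0.33, adjusted p = 4.61e-06). The lowest injured rat lay just above the highest sham rat. Parts of the helicase that opens DNA for copying, Mcm6 (1.80 ± 0.22) and Mcm5 (1.58 ± 0.26), the replication clamp Pcna (1.35 ± 0.16) and the cyclin of cell cycle entry Ccnd1 (1.52 ± 0.18) separated the injured from the sham rats fully. Ccnb1, the mitotic cyclin, overlapped. It was at 3.02 and 0.46 in the SCI-EtOH and 1.42 and 3.23 in the SCI-MP rats against 0.53 to 1.11 in the sham rats (1.22 ± 0.30, adjusted p = 0.000898), so that 1 injured rat lay below all sham rats. These pairs of injured rats differed widely, and the SE and p rest on the pairs of all times. In all, 18 of the 57 genes had every injured rat above every sham rat, as did 18.9% of all genes tested. Stmn1, which takes down microtubules and is also a neuronal gene, was the 1 that fell (−0.77), with −1.45 and −1.38 in the SCI-EtOH rats and −0.12 and −0.05 in the SCI-MP rats.

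The median of the 57 genes in an array was 1.79 and 0.24 in the SCI-EtOH rats, 0.84 and 1.85 in the SCI-MP rats and 0.182 to 0.33 in the sham rats. Chemokines were ordered the other way among the same rats, with Ccl3 and Cxcl2 lowest in SCI-EtOH replicate 1 (0.58 and 0.91) and SCI-MP replicate 2 (−0.30 and 0.00), the rats with the highest medians of cell cycle genes. The second principal component of the 8 arrays, with 9.84% of their variance, set these same rats (18 and 18.32) apart from the other injured rats (−20.1 and −13.87), while the sham rats lay between −2.322 and 1.54. No label divides the rats in this way and no test was made of it. Counted without SCI-EtOH replicate 1, 35 of the 57 genes rose (median 0.49) and without SCI-MP replicate 2, 39 did (median 0.57), against 51 without SCI-EtOH replicate 2 (median 1.33). With the spread taken from the 48 h arrays alone 22 of the 57 rose, after quantile normalization 12 did (median 0.16), and in the plain test 4 did. Of all 14324 genes 2818, 2346 and 2105 rose under these settings, in the same order. In the plain test the share that rose was thus smaller in the list than over all genes.

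**Figure D3:**
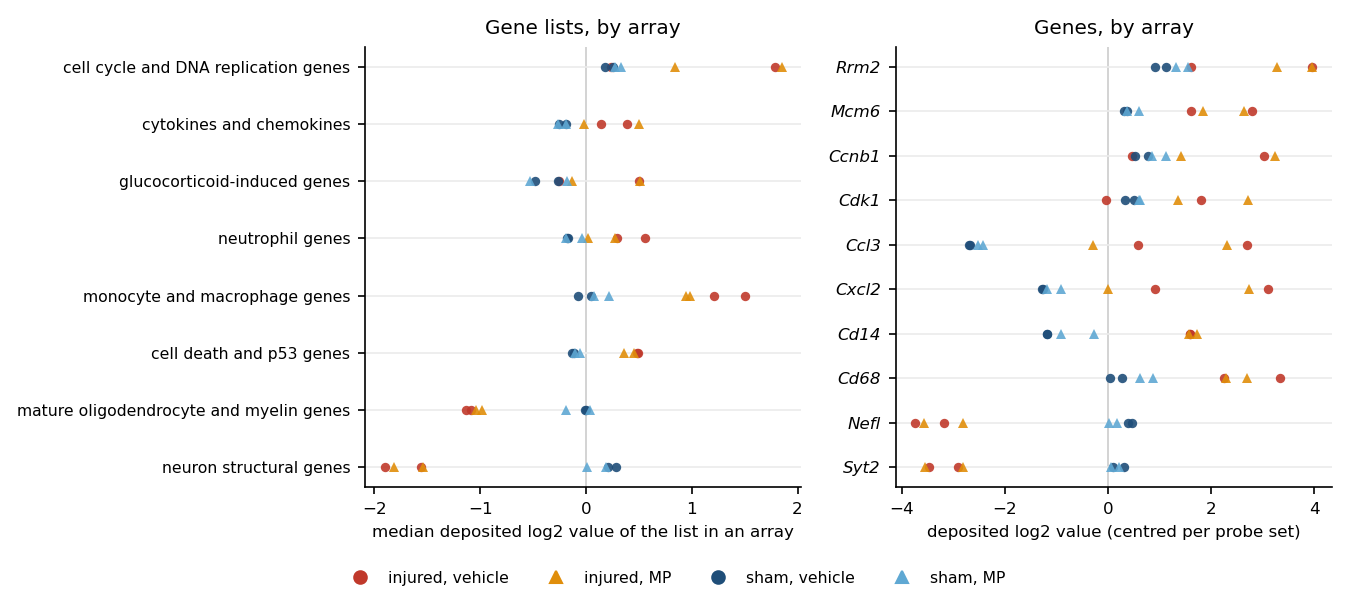
Left, median deposited log2 value of 8 gene lists in each array. Right, deposited log2 value of 10 genes in each array, 1 point per rat with colour and shape for the 4 groups. The injured rats span 0.24 to 1.85 in the cell cycle list and 0.46 to 3.23 in Ccnb1, and stay close together in the myelin list and in Syt2.

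Genes that peak in late cell cycle are known to share the promoter element CHR, TTTGAA, often beside CCAAT boxes. Promoter windows that span the start were found for 43 of the 57 genes in the RefSeq table of the build GRCr8. TTTGAA on either strand was found in 20 (46.5%), CCAAT on either strand in 30 (69.8%) and both in 16 (37.2%), against 15.2%, 38.3% and 6.3% of the 11825 genes tested that had a promoter, and 18.3%, 37.5% and 7.41% of all 33469 promoters. Where the motifs touch they can share a single end base at most. The 3 genes with the largest rise among those that hold both are Prc1, which bundles spindle microtubules (1.24 ± 0.29), Ccnb2, a mitotic cyclin (1.09 ± 0.28), and Plk1, the kinase that drives mitosis (1.08 ± 0.29). Their promoters are shown 5′ to 3′ on the strand of the gene with both motifs, in either direction, in capitals.
Prc1, chr1:143659231-143659530, plus strand: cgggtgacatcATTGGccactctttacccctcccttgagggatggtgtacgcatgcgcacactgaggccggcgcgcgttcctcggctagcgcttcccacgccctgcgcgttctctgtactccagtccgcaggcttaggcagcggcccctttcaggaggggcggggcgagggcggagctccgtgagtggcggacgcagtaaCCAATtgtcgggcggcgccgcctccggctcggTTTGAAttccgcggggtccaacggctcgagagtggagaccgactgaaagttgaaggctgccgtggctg
Ccnb2, chr8:79981609-79981908, minus strand: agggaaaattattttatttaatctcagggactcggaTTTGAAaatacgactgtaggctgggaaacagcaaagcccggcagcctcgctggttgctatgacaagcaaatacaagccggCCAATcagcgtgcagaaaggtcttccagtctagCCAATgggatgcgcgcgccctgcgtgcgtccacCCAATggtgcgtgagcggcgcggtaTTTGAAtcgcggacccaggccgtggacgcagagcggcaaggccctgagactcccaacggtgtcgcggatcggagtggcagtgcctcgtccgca
Plk1, chr1:186147408-186147707, plus strand: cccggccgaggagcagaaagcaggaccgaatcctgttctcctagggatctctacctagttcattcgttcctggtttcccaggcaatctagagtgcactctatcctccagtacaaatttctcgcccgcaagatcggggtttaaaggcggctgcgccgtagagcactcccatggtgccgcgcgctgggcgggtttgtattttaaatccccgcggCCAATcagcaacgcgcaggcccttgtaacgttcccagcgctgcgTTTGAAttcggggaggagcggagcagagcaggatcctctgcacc
The TTTGAA nearest the start began at −18 in Prc1, −43 in Ccnb2 and 6 in Plk1, counted from the start, with a CCAAT box beginning at −50, −68 and −38. These matches describe the letters of the windows, and binding was not measured.

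Matrix, vessel and protease genes were mixed. Of 21 genes of collagens and fibroblast matrix 11 rose and 2 fell (median 0.43, and −0.26 after quantile normalization). In the plain test on the 48 h arrays the share called was smaller in this list than over all genes. Fn1, a matrix protein that plasma carries as well, was at 2.01 to 2.11 in the injured rats, 0.48 to 0.58 in 3 sham rats and 1.16 in S-MP replicate 2 (1.39 ± 0.21), whereas the main fibrillar collagen gene Col1a1 did not pass the test (−0.37, adjusted p = 0.437). Of 23 metalloproteinases and their inhibitors 12 rose and 4 fell (median 0.36), led by Adamts1 (2.10 ± 0.23) and Mmp3 (2.03 ± 0.25), which cut matrix, and Mmp19 (1.87). Of 20 proteoglycan and tenascin genes 10 fell and 5 rose (median −0.26). The deepest falls were of genes of the matrix around neurons (Bcan −2.22, Tnr −1.67, Cspg5 −1.67, Hapln4 −1.62), and those that rose were the cell surface genes Sdc1 (2.45 ± 0.17), Cd44 and Sdc4 and the scar proteoglycans Vcan (1.18) and Ncan (0.73). Of 23 endothelial and pericyte genes 8 rose (34.8%, against 22.4% of all genes) and 6 fell (26.1%, against 21.6%), with a median of 0.19. Esm1 (2.22 ± 0.30) and Angpt2 (1.79 ± 0.17), made by sprouting vessels, rose, and the pericyte gene Rgs5 fell from between −0.09 and 0.13 in the sham rats to between −2.15 and −1.31 in the injured rats (−1.78 ± 0.15). Tfpi2, an inhibitor of proteases, rose by 3.70 ± 0.42.

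Of 28 genes of cell death and the p53 response 21 rose and 0 fell (median 0.51), led by Gadd45a, which is induced by DNA damage (0.88 to 1.16 in the injured and −0.86 to −0.58 in the sham rats, 1.79 ± 0.14), and by Ripk3, the kinase of necroptosis (1.46 ± 0.24). Of 28 antioxidant, haem and metal-handling genes 13 rose and 3 fell (median 0.30), led by Hmox1 and the metallothionein Mt1 (1.76) and, on the other side, by Mt3, the metallothionein of neurons and astrocytes (−1.41). Of 28 hypoxia and glycolysis genes 15 rose and 7 fell (median 0.20). Ldha, which makes lactate (2.03 ± 0.13), and Slc16a3, which exports it (2.23 ± 0.20), rose, and Pfkm, the muscle and brain form of phosphofructokinase, fell (−2.09 ± 0.10). Of 36 lysosome genes 9 rose (25.0%, near the 22.4% of all genes) and 12 fell (33.3%, against 21.6%), with a median of −0.07. Cd68 and Cd63 (1.51) were at the top and Atp6v1a, a subunit of the proton pump (−1.21), at the bottom. Of 24 genes induced by glucocorticoids 12 rose (50.0%, against 22.4% of all genes) and 4 fell (16.7%, against 21.6%), with a median of 0.62. Among them Il1r2, Nfkbia, the inhibitor of NF-kB (1.75), and Fkbp5 (0.72) were higher, while Tsc22d3 was lower (−0.56). The median of the list in an array was −0.251 and 0.506 in the SCI-EtOH rats, 0.515 and −0.133 in the SCI-MP rats and −0.526 to −0.177 in the sham rats, so that the rats differed within both medications. In the plain test on the 48 h arrays the share called was smaller in this list than over all genes.

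The injury difference was next set apart by medication. In rats given the vehicle 5000 genes differed (34.9%), 2632 higher and 2368 lower, and in rats given MP 4533 (31.6%), 1955 higher and 2578 lower. Of these, 3407 changed in the same direction under both, 68.1% of the vehicle calls and 75.2% of the MP calls, and 3 changed in opposite directions. These 3, looked up after their values were seen, were Etaa1 (−0.42 with vehicle and 0.40 with MP), Selenok (−0.52 and 0.59) and Zmat2 (−0.76 and 0.63), and none passed the test of the difference between them (adjusted p = 0.0840, 0.181 and 0.128). Neuron structural genes fell in 19 of 21 under each medication (16.5% of all genes fell with vehicle and 18.0% with MP), with medians of −2.01 and −1.71. Monocyte and macrophage genes rose in 15 of 22 with vehicle (median 1.44; 18.4% of all genes rose) and in 13 of 22 with MP (median 0.93; 13.6% of all genes rose). The difference between these medians was not tested.

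The difference itself passed the test in 6 genes (0.0419%), each of them with the smaller value in rats given MP. Cxcr4, the receptor of the chemokine Cxcl12 on leukocytes and progenitors, was at 1.73 and 1.27 in the SCI-EtOH rats, 0.39 and 0.23 in the SCI-MP rats, −0.19 and −0.18 in the S-EtOH rats and 0.08 and 0.27 in the S-MP rats. Its rise of 1.68 with vehicle was 0.13 with MP, where injured and sham rats overlapped (difference −1.55, adjusted p = 0.00499). The difference was also smaller with MP for Csf3r, the receptor of the growth factor of neutrophils (1.66 with vehicle and 0.29 with MP). The same held for Slc11a1, a metal transporter of phagosomes (1.97 and 0.62), and Ncf1, a subunit of the oxidase of phagocytes (1.42 and 0.17). It held too for Arhgap30 (1.47 and 0.51) and Mafg, a partner of stress transcription factors (0.60 and −0.01). Csf3r, Slc11a1, Ncf1 and Arhgap30 kept every injured rat above every sham rat, and Mafg did not. For Ncf1 the S-MP rats (0.51 and 0.67) also lay above the S-EtOH rats (0.10 and 0.11). With the spread of the 48 h arrays alone 0 genes passed in limma (1433 at an unadjusted p under 0.05, against 1288 with all arrays). Every rat moved this count: it was 1 without S-EtOH replicate 1 or S-MP replicate 2, 3 without S-EtOH replicate 2, S-MP replicate 1 or SCI-MP replicate 1, and 70, 66 and 59 without SCI-EtOH replicate 1, SCI-EtOH replicate 2 and SCI-MP replicate 2. Of these last, 33, 3 and 7 had the larger value with MP. On simulated data this test found 77 of 100 genes whose difference was 1 and 13 of 100 where it was 0.5.

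**Figure D4:**
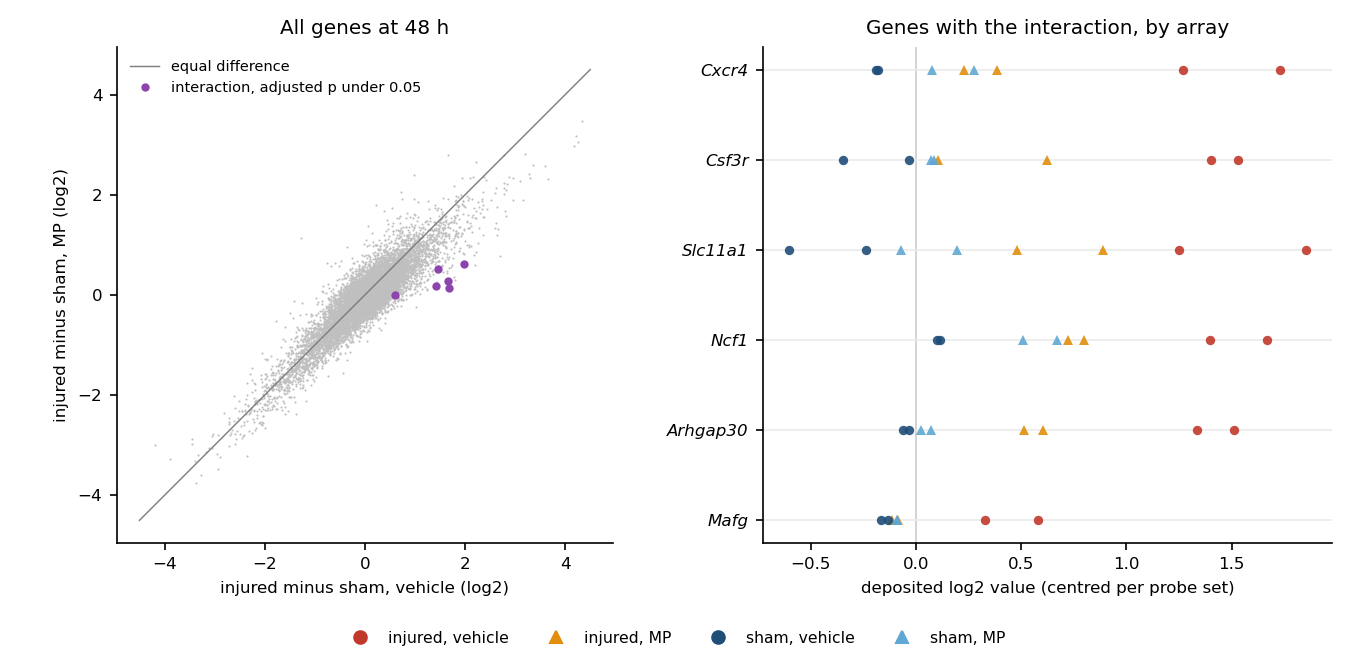
Left, log2 injury difference at 48 h with vehicle (horizontal axis) and with MP (vertical axis) for 14324 genes, with the 6 genes of the interaction in purple and the line of equal difference. Right, deposited log2 values of these 6 genes, 1 point per rat with colour and shape for the 4 groups, where the SCI-MP rats lie below the SCI-EtOH rats in every gene.

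Most of the injury difference was already present in the rats taken at 24 h. At 24 h 6170 genes differed between injured and sham rats (43.1%), and 5023 of them changed the same way at 48 h (79.7% of the calls at 48 h and 81.4% of those at 24 h), with 0 in opposite directions. Between 2 and 48 h the calls numbered 1262, 3917, 5262, 3883, 6173, 6170 and 6304 at the 7 times. The median of neuron structural genes was −0.61 at 2 h, where 13 of 21 fell, −1.10 at 4 h, where 19 fell, and −1.62 at 12 h. That of myelin genes went from −0.23 at 12 h to −0.64 at 24 h and −0.94 at 48 h, and that of neutrophil genes stood at 1.08 at 12 h, 0.73 at 24 h and 0.48 at 48 h.

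**Figure D5:**
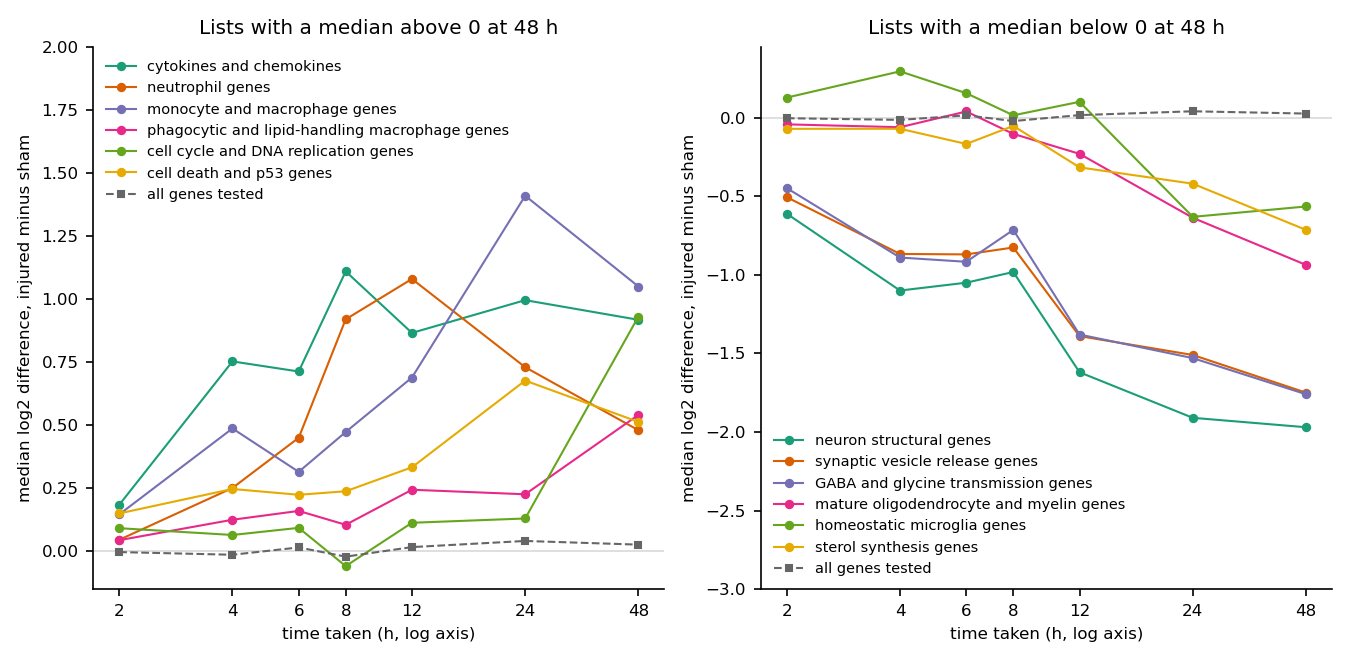
Median log2 difference between injured and sham rats over both medications (vertical axis) at the 7 times from 2 to 48 h (horizontal log axis) for 6 lists with a median above 0 at 48 h (left) and 6 below (right), with the median of all genes dashed. The cell cycle list stays between −0.06 and 0.13 up to 24 h and is at 0.93 at 48 h.

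A test of the difference between the 2 times called 20 genes (0.140%), 15 with a higher (0.105%) and 5 with a lower (0.0349%) value at 48 h. The largest of the former were these. Mms22l, which repairs broken replication forks, had an injury difference of 0.30 at 24 h and 1.43 at 48 h (1.13 ± 0.16, adjusted p = 0.000197), Ska3 and Kntc1, which link chromosomes to the spindle, went from 0.18 to 1.30 and from 0.02 to 1.13, and Tyms, which makes thymidine nucleotides, from −0.10 to 1.01. After quantile normalization the difference of Tyms at 48 h was −0.0015. Kng2, a kininogen, went from −0.06 to 0.96. The phosphatase Cdc25c, which starts mitosis, went from −0.02 to 0.78, with every injured rat at 0.71 or above and the sham rats at 0.03 to 0.16 at 48 h. Among the 5 others, Inhba, a subunit of activin, had risen by 2.65 at 24 h and by 1.10 at 48 h, and Dao, the oxidase of D-amino acids in astrocytes, was at −0.51 and then −1.45. With the spread of the 16 arrays of these times alone 0 genes passed in limma (1004 at an unadjusted p under 0.05, against 1054). Of the 48 h rats, leaving out S-EtOH replicate 1 or S-MP replicate 2 gave 9 genes, SCI-EtOH replicate 1 11, SCI-MP replicate 1 144 and SCI-EtOH replicate 2 232. Of the 24 h rats, leaving out S-EtOH replicate 2 gave 9, S-MP replicate 2 39, SCI-EtOH replicate 1 41 and SCI-MP replicate 1 188. Lower values outnumbered higher ones without SCI-MP replicate 1 (106 against 82) or replicate 2 (11 against 9) of 24 h. Over the cell cycle list the median was 0.13 at 24 h, where 8 genes rose and 1 fell (21.4% and 21.7% of all genes), against 0.93 at 48 h. Tyms was the 1 member to pass the test between the times, against 43 without SCI-EtOH replicate 2 and 25 without SCI-MP replicate 1.

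Set against the mean of the 6 times from 2 to 24 h, the difference at 48 h was called in 3899 genes (27.2%), 2247 higher (15.7%) and 1652 lower (11.5%). Trh (2.42), Serpina3n (2.04), Rrm2 (1.82), Slc6a20a, an amino acid transporter (1.81), Mcm6 (1.67), Steap1 (1.67), Gldn, which gathers sodium channels at nodes (1.65), and Vgf (1.63) were furthest above that mean. Slc6a20a did not pass the test of injury at 48 h itself (0.89, adjusted p = 0.0578, and −0.12 after quantile normalization). Furthest below it were Slco1c1 (−2.52), which carries thyroid hormone across brain vessels, the pericyte gene Rgs5 (−1.91), Itih3, which binds hyaluronan (−1.78), the vessel transporter Slco1a4 (−1.78) and Grm3, a glutamate receptor of astrocytes (−1.77). Of the 57 cell cycle genes 48 were higher than over the earlier times and 1 lower. After quantile normalization the count over all genes was 1214, of which 656 were higher, and that of higher cell cycle genes 4.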

How the data were processed

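RNA of 60 lesioned or sham spinal cords was hybridised by the authors to Affymetrix Rat Gene 1.0 ST arrays, 1 rat an array, 2 rats a group. The deposited values are log2 numbers that the authors made by robust multi-array averaging and per-chip and per-gene normalization. They are centred per probe set on a reference that the sources do not name, so no level or background could be read from them. Of 27342 probe sets 15097 had 1 gene symbol. Their values were averaged per gene, giving 14324 genes, of which 499 had several probe sets. A noise filter written here after the description in the methods removed 0 of the 15097 and kept 27338 of all 27342 probe sets. It differs from the filter the authors applied, which removed far more, so the genes tested may include probe sets that they dropped. limma 3.58.1 in R 4.3.3 fitted the 30 group means of all 60 arrays (30 residual degrees of freedom), so that the pairs of rats share 1 estimate of spread, and p-values were adjusted by the method of Benjamini and Hochberg over all genes at 0.05. The methods' one-way analysis of variance was replaced by a moderated test, with a plain test on the 48 h arrays as an alternative. The 35 lists and their members were chosen with earlier results of these data known. Genes were named as the 15 largest rises and falls without overlap, up to 6 called members of each list with the largest change and up to 3 called against its median, and up to 8 genes in each direction of each further comparison. Defining markers, and a few genes of a list beyond this rule, were named after their values were seen. On simulated data of 14324 genes the test of injury over both medications found 97 of 100 genes with a log2 change of 1 and 75 of 100 with one of 0.5, and made 7 false calls, and that of the interaction 77 and 13 of 100, with 2. The number of arrays limits the precision.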

Additional observations from a re-analysis of the deposited data

Results flagged for a closer look

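A sample far from the other 3 of its kind was found in 24 of 480 sets of 4 injured or 4 sham values, where chance gives about 1 in 20. The gap to the nearest sample as a share of the range, where it passed Dixon's critical value for 4 samples, was among injured rats 0.901 for Cd14, 0.858 for Chrm2, 0.925 for Grm5, 0.914 for L1cam, 0.867 for Mmp19 and 0.845 for Tnnc2 (SCI-MP replicate 1), 0.941 for Mmp9, 0.861 for Nefh, 0.892 for P2ry12 and 0.873 for Ugt8 (SCI-MP replicate 2), 0.926 for Lamc1 and 0.877 for Lox (SCI-EtOH replicate 1) and 0.854 for Ckmt1 (SCI-EtOH replicate 2). Among sham rats it was 0.845 for Apln, 0.871 for Ctsk, 0.855 for Fn1, 0.86 for Inhba, 0.877 for Lilrb4 and 0.917 for Nfkbia (S-MP replicate 2), 0.884 for Alas2 and 0.914 for Dao (S-MP replicate 1), 0.843 for Ifit3 and 0.862 for Tyms (S-EtOH replicate 2) and 0.836 for Il11 (S-EtOH replicate 1).

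The injury difference itself differed between medications at 48 h in 6 genes, by −0.96 (MP minus vehicle, log2) for Arhgap30, −1.37 for Csf3r, −1.55 for Cxcr4, −0.61 for Mafg, −1.25 for Ncf1 and −1.35 for Slc11a1. Between 24 and 48 h it differed (48 h minus 24 h) by 0.79 for Cdc25c, 0.95 for Cenpk, 1.02 for Kng2, 1.11 for Kntc1, 1.13 for Mms22l, 1.12 for Ska3, 1.10 for Tyms, 0.77 for Zfp367, −0.94 for Dao, −1.55 for Inhba, −0.77 for Nppb, −0.75 for Nuak2 and −0.62 for Sfxn5.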

How the results depend on the processing

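The count of genes called over both medications was 6304 and lay between 5634 and 6003 when 1 rat at a time was left out. With the 48 h arrays alone 5727 genes were called (5397 of them among the 6304, in the same direction), after quantile normalization 5188 (4759 shared, with 45.2% of calls higher against 50.9%) and with the plain test 4518. With all probe sets tested singly 9686 probe sets were called, and 6861 for MP. The vehicle and MP counts lay between 3735 and 4269 and between 3152 and 4124 without 1 rat. The interaction and the test of 48 h against 24 h were the least stable counts: 0 and 0 with the arrays of the times compared alone, 3 and 2 after quantile normalization, 1 to 70 and 9 to 232 without 1 rat, and 37 for the latter with array weights. After quantile normalization 33.3% of the 3 interaction calls and 50% of the 2 calls between times were higher. The count of 48 h against the earlier times was 1214 after quantile normalization and 3097 to 4493 without 1 rat. The cause of these changes was not tested. Of 240 genes followed 170 kept their direction and their side of the threshold under every setting.

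After quantile normalization the differences of Ctsc (−0.0455), Lox (−0.29), Mfsd2a (0.0745), Slc6a20a (−0.12) and Tyms (−0.0015) turned, as did the medians of the collagen (−0.26) and axon growth (−0.0727) lists. The median of the Schwann cell list turned with array medians at 0 (−0.0015). Without 1 rat it ranged from −0.10 to 0.11, that of MHC class II genes from −0.0295 to 0.129, of lysosome genes from −0.16 to 0.0072 and of axon growth genes from −0.0051 to 0.0946. Called members after quantile normalization were 10 of the phagocytic, 2 of the T and B cell, 11 of the myelin, 1 of the muscle, 12 of the cell cycle, 0 of the MHC class II and 5 of the sterol list. Under that setting 36.2% of all genes were called. With the plain test they were 6 of the neutrophil, 12 of the phagocytic, 2 of the microglia, 0 of the T and B cell, 1 of the erythrocyte, 3 of the Schwann cell, 15 of the cytokine, 5 of the cell cycle, 4 of the collagen, 12 of the lysosome, 10 of the antioxidant and 5 of the glucocorticoid list. In that test 31.5% of all genes were called in either direction. This was a larger share than in the neutrophil, microglia, T and B cell, erythrocyte, Schwann cell, cell cycle, collagen and glucocorticoid lists. With the 48 h arrays alone they were 0 of the T and B cell, 3 of the Schwann cell and 23 of the cell cycle list, in the additive model 4 of the ependymal and 23 of the cell cycle list, and with array weights 2 of the T and B cell list. Without 1 rat they were 0 to 3 of the T and B cell, 4 to 7 of the ependymal, 1 to 2 of the muscle, 3 to 5 of the Schwann cell and 1 to 2 of the MHC class II list.

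The labels number the rats of each group, but the numbers did not pair them: the correlation of deviations of same-numbered rats ran from −0.574 to 0.137, with 1 of 6 pairs of groups over 0.1. With the number as a replicate block the counts were 6330 over both medications, 5008 with vehicle, 4550 with MP, 7 for the interaction, 24 for 48 h against 24 h and 3924 against the earlier times. With 2 rats a group and no detection values, differences of dim probe sets could not be told from background.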
